A study of Mus musculus with 15 samples.

Results

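Goblet cells of the mouse small intestine were taken from single-cell RNA sequencing of 5 mice, as cells of the proximal or distal small intestine in which the summed UMIs (unique molecular identifiers, 1 per captured RNA molecule) of Fcgbp, Clca3, Tff3 and Zg16 made up at least 0.5% of all UMIs and at least 3 of these 4 genes were seen. The rule kept 1454 of 14547 small intestine cells, and 7.69% of all 18919 cells of the series. Libraries were made by Seq-Well with second strand synthesis, which captures single cells with barcoded beads in small wells. Each mouse gave 1 library from the proximal small intestine, 1 from the distal small intestine and 1 from the colon. All mice were 6 months old and carried the Lgr5-eGFP-IRES-CreERT2 allele, a reporter of Lgr5-expressing stem cells. The 2 control mice ate a purified diet with 10% of kcal from fat and the 3 high fat diet (HFD) mice one with 60% of kcal from fat. The labels name no sort or gate, no sex and no duration of feeding, and nothing in them says that the animals were pooled. With 2 against 3 mice, p-values between diets rest on very few animals.

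Goblet cells are the mucus-secreting cells of the gut lining. They fold, link by disulfide bonds and heavily glycosylate mucins in the endoplasmic reticulum and Golgi, store them in granules and release them as the mucus layer, together with trefoil peptides and lectins. They arise from crypt progenitors through the transcription factor Atoh1, which Notch signalling holds down in absorptive cells, and mature under Spdef. Their share of the epithelium is known to rise along the small intestine toward the ileum.

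Of the 4 genes that define the cells, Fcgbp and Clca3 encode secreted mucus proteins, Tff3 a trefoil peptide of the mucus and Zg16 a lectin that binds Gram-positive bacteria. These genes held a median of 3.08% of the UMIs of a goblet cell (interquartile range 1.66% to 5.28%, highest 21.7%) and 0.0102% of those of the other small intestine cells. Values at the threshold were continuous, with 47 goblet cells between 0.5% and 0.6% and 58 cells that had 3 of the genes at 0.4% to 0.5% and were left out. All 4 genes were seen in 995 goblet cells and 3 in 459. The cells were chosen by these values, which are therefore a description only. Muc2, the main gel-forming mucin, was not analysed here.

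One library stood apart. In the proximal library of HFD mouse 1, goblet cells carried a median of 0.703% of their UMIs in the 4 genes, against 2.60% to 4.46% elsewhere, and the other cells of that library carried 0.0813%, against at most 0.0366% elsewhere. In that library 30 of the 48 goblet cells lay below 1%. Without it the proximal diet calls for Mmp7 and Acadl, the regional calls for Reg3g and Fut2 among others, and the calls of goblet minus other proximal cells for Cps1 and Oat were lost, as were both calls of diet by region. Goblet cells numbered 38 to 502 per library, with summed counts of 448997 to 9810813 UMIs and median depths of 4768 to 24109 UMIs per cell. Of 18898 barcodes, 16 were shared by libraries, and 1 goblet cell carried such a barcode.

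Some goblet cells held RNA of a second cell type. Of 329 small intestine cells that passed a like rule for 6 Paneth cell genes (Lyz1, Defa17, Defa24, Mmp7, AY761184 and Gm14851, at 0.5% of UMIs with 3 seen), 178 were also goblet cells by the rule, which was 54.1% of the Paneth-rule cells and 12.2% of the goblet cells. Of these 178 cells 158 were distal, 105 came from the distal library of HFD mouse 3, and 9 were called doublets. Scrublet called 5.91% of goblet cells as doublets, against 0.939% of the other small intestine cells. Of the 86 goblet cells so called, 59 came from the distal library of HFD mouse 3, so both overlaps rest largely on 1 library. Among 371 cells (median depth 10045 UMIs) with at least 5 of 13 T and B cell genes, which should lack goblet genes, 24 (6.47%, 95% exact binomial interval 4.19% to 9.47%) passed the goblet rule, and 14 of the 24 came from the distal library of HFD mouse 3. Among the 13983 cells with fewer than 3 of the T and B cell genes the share was 10.1% (9.61% to 10.6%) at 13999 UMIs. Intervals cover counting error only. Whether cells caught together, free RNA or cells between the types account for this overlap was not tested.

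Several genes outside the rule that are known from goblet cells were high in the same cells. Agr2, a disulfide isomerase of the endoplasmic reticulum needed for mucin assembly, had 9962, 9057, 5826, 7700.1 and 6733 CPM, counts scaled by the summed total, in the proximal goblet cells (control mice 1 and 2, then HFD mice 1, 2 and 3) and 6340.3, 10504, 8376, 9744 and 10257 CPM in the distal ones. In the other cells of the same libraries Agr2 lay between 67.5 and 251 CPM, so the groups did not overlap, and the median log2 ratio was 5.89 (range over the 10 libraries 4.68 to 6.87, 10 CPM added to both sides). Any gene that travels with the rule genes is high by that choice, so ratios against other cells are given without a test.

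The 21 leading genes outside the rule were Agr2, Spink4, Bcas1, Guca2a, Ccl6, Ccl9, Slc12a8, Spdef, Sytl2, Fer1l6, Creb3l1, Ern2, Scin, Rep15, Rap1gap, Atoh1, Gcnt3, Galnt5, Selm, Bace2 and Kcnk6. Their median log2 ratios ran from 5.89 down to 3.57, where Kcnk6, a potassium channel, stood at 11.9-fold with 10 CPM added to both sides. Secreted products were among the highest. Spink4, a peptidase inhibitor, had a median of 3669 CPM in goblet and 85.5 CPM in other cells. Guanylin (Guca2a), the peptide that activates guanylate cyclase C, had 1683 CPM in goblet and 61.1 CPM in other cells. The chemokine Ccl6 had 798 CPM in goblet and 17.6 CPM in other cells, with ratios that ranged widely, from 2.06 to 5.89. Genes of granule traffic were among them, with Sytl2, a Rab-binding exocytosis protein, at 268 CPM in goblet and 8.51 CPM in other cells, Scin, an actin-severing protein, at 358 CPM in goblet and 13.6 CPM in other cells, and Rep15, a Rab15 effector, at 175 CPM in goblet and 1.71 CPM in other cells. Against these, 425 of 9262 genes measured at 10 CPM or more in either group (4.59%) had a median log2 ratio of 1 or more, 316 (3.41%) one of -1 or less, and 184 (1.99%) a ratio of 1 or more in all 10 libraries.

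**Figure D1:**
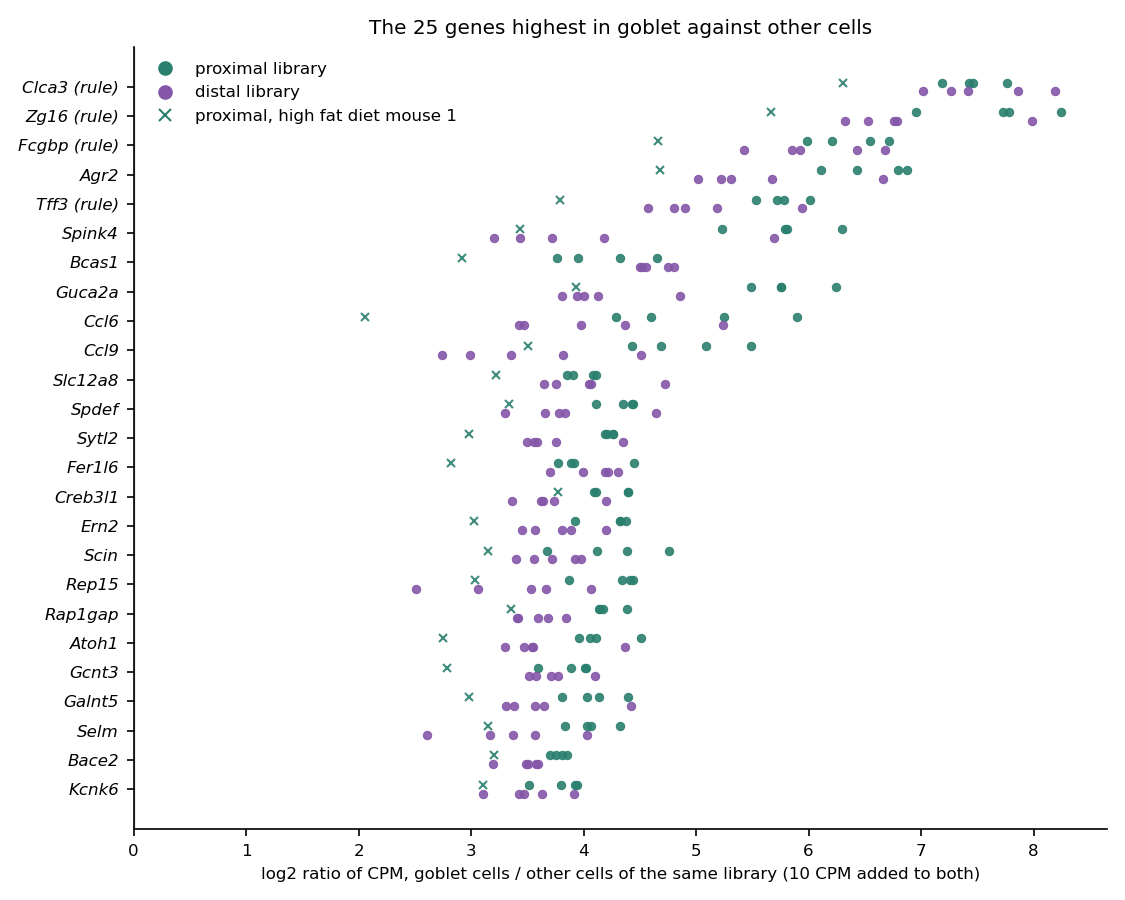
Each point is 1 small intestine library, and the x axis is the log2 ratio of CPM in goblet cells to CPM in the other cells of that library, for the 25 leading genes. All ratios lie above 2, and the proximal library of HFD mouse 1 (crosses) is the lowest of the 5 proximal libraries for all 25 genes.

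Of 31 other goblet cell markers measured, 29 had a median log2 ratio of 1 or more and the median of the list was 3.13. The exceptions were Ang4, an antimicrobial ribonuclease, at 0.66 and the row named Clca1 at -0.17. The table keeps Clca3 as a separate row, a name without a single match in the annotation used for coordinates. Which gene the Clca1 row holds is therefore not settled, and its value is not read as that of a goblet marker. Not every list of secreted products was high. The list of secreted mucus genes, rule genes left out, had 3 of 15 higher and 4 lower (median 0.15). The antimicrobial list had 3 of 18 higher and 3 lower (median -0.07), where 4.59% of all genes were higher and 3.41% lower. The secretory fate list had 14 of 25 genes higher and 3 lower. Atoh1 had 289.5 CPM in goblet and 8.56 CPM in other cells, and the ETS factor Spdef, which drives goblet maturation, had 284 CPM in goblet and 6.64 CPM in other cells. Other regulators at a ratio above 2 were the Notch ligands Dll1 (3.13) and Dll4 (2.44), Klf4 (2.82), the secretory architecture factor Bhlha15 (2.56) and Foxa3 (2.23), while Gfi1, which separates goblet and Paneth from enteroendocrine fate, was at 1.84. The Notch receptors went the other way, at -1.61 for Notch1 and -1.42 for Notch2. Neurog3, the enteroendocrine fate factor, was at 0.44 with a range of -1.02 to 2.33 and gave no common direction.

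Mucin O-glycosylation genes were mostly higher, with 22 of 37 at a ratio of 1 or more, 2 at -1 or less and a list median of 1.20. The enzymes that start the sugar chain on serine or threonine included Galnt5 (3.73), Galnt12 (2.75), Galnt7 (2.52) and Galnt3 (1.95). The core 1 enzyme C1galt1 and its chaperone C1galt1c1 were at 2.12 and 2.11, and the branching enzyme Gcnt3 at 3.74. Sulfation was represented by Chst4 at 3.09 (range 1.96 to 3.53). Fut2, which adds terminal fucose, was at 0.14, and the sialyltransferase St3gal4 at -1.09.

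Endoplasmic reticulum folding and secretion genes were higher as a group, with 35 of 51 at a ratio of 1 or more, none at -1 or less, 20 at 1 or more in all 10 libraries and a list median of 1.24 (all genes -0.13). The goblet-enriched stress sensor Ern2 had 283 CPM in goblet and 7.23 CPM in other cells, and the membrane-bound factors Creb3l1 and Creb3l4 were at 3.93 and 3.48. Disulfide enzymes followed, with Pdia5 at 3.46, Txndc5 at 3.43 and Pdia6 at 1.71. The general chaperone Hspa5 (BiP) had 4225 CPM in goblet and 1643 CPM in other cells, a ratio of 1.42 (range 1.02 to 1.62), and Xbp1, the factor spliced by the stress sensors, a ratio of 1.42. The ubiquitous sensor Ern1 (0.37), Atf6 (0.58), Derl1 (0.32) and Canx (0.07) lay close to the other cells.

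**Figure D2:**
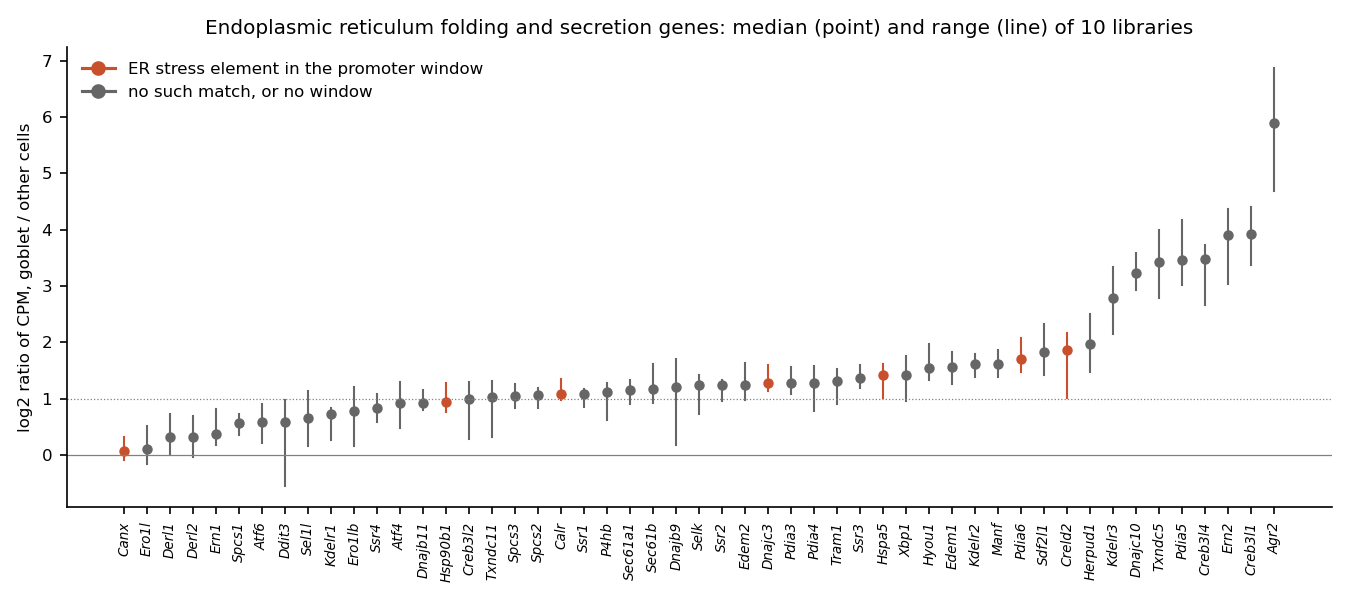
Each gene of the endoplasmic reticulum list is drawn with the median (point) and range (line) over 10 libraries of its log2 ratio of CPM in goblet to other cells. Of the 51 genes 35 have a median of 1 or more (dotted line), and genes with the ER stress element in the promoter window (coloured) stand between 0.07 and 1.87.

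Promoters of listed genes that hold the ER stress element are shown, since this element is known from chaperone genes. RefSeq windows of 250 bases before to 50 after each start (GRCm38.p6) were found for 38 of the 53 listed genes. The ER stress element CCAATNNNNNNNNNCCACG, bound by NF-Y with ATF6 at its ends, was searched on both strands and was present in 8 of the 38 (21.1%), against 20 of 11738 measured genes with a window (0.170%). The pieces below read 5′ to 3′ on the strand that spells the element, with its fixed letters in capitals.
Hspa5, chr2:34772010-34772058, plus strand: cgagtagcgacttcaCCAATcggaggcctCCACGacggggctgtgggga
Pdia6, chr12:17266476-17266524, plus strand: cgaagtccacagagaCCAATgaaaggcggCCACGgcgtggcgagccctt
Dnajc3, chr14:118937812-118937860, plus strand: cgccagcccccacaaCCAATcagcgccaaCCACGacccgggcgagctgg
Creld2, chr15:88819505-88819553, minus strand: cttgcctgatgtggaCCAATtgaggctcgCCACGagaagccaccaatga
Calr, chr8:84847060-84847108, plus strand: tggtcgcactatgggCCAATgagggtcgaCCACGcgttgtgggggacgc
Hsp90b1, chr10:86705518-86705566, plus strand: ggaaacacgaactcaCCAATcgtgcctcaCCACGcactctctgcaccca
Canx, chr11:50325785-50325833, minus strand: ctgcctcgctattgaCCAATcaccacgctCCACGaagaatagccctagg
Derl3, chr10:75893227-75893275, minus strand: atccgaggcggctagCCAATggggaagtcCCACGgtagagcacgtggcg
The first base of the element lay between position -65 (Hspa5) and position -212 (a second copy in Hsp90b1) from the start. Goblet to other ratios of the genes printed were 1.42 for Hspa5, 1.71 for Pdia6, 1.28 for Dnajc3, 1.87 for Creld2, 1.08 for Calr, 0.94 for Hsp90b1 and 0.07 for Canx, while Derl3 was measured below 10 CPM. The related element TGACGTGG was found in 3 of the 38 (Txndc5, Txndc11 and Kdelr3), against 1.07% of all measured genes with a window, and no listed gene held both. A match describes the letters only.

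Of the 25 leading genes 11 had a promoter window. The E-box CAGCTG, the core that Atoh1 and other basic helix-loop-helix factors bind, was held by 6 of these, against 18.6% of all measured genes with a window. The motif reads the same on both strands. It is shown in capitals below, for 5 genes with very different products, on the gene's own strand.
Fcgbp, chr7:28071008-28071053, plus strand: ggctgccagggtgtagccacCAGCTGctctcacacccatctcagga
Guca2a, chr4:119637506-119637551, plus strand: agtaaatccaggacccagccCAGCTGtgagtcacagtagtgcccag
Ccl9, chr11:83578813-83578858, minus strand: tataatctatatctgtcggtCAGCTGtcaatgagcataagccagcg
Slc12a8, chr16:33517976-33518021, plus strand: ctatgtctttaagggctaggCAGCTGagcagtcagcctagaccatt
Galnt5, chr2:57998072-57998117, plus strand: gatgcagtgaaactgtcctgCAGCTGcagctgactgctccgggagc
Rap1gap was the other gene with a match, and Galnt5 held 2 copies in tandem. The forkhead core TGTTTAC was found in 1 of the 11, against 3.26% of all measured genes with a window. Among the 6 diet-called genes with a window, the HNF4-like CAAAGTCCA was found in 1, against 0.605%, and the HNF1 site GTTAATNATTAAC in 0, against 0.00852%. Of the same genes 2 held the nuclear receptor site AGGTCA, against 15.6%, and 0 held the direct repeat AGGTCANAGGTCA, which contains it, against 0.0426%. All motifs were chosen after the expression values were known.

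Lists of other lineages differed in direction, within the overlap described above. Absorptive markers were lower for 16 of 25 (list median -1.29), among them the brush border enzymes Sis (-2.30) and Anpep (-2.01), while Fabp2 was at 1.07. Enteroendocrine markers were lower for 12 of 20 and higher for 2, with Chgb at -3.83. Tuft markers were lower for 5 of 7, with Dclk1 at -1.39. The 19 tuft markers in the table, low ones included, were also summed. In proximal control libraries the sums were 717 to 847 CPM in goblet and 413 to 418 CPM in other cells. In proximal HFD libraries they were 577 to 748 and 351 to 589 CPM. Distally they were 372 to 539 and 409 to 414 CPM in the control, and 521 to 638 and 578 to 699 CPM in the HFD mice. Of the 19 markers 2 had a higher mean in goblet than in other cells. Stem cell genes were lower for 10 of 25 and higher for 0, with Olfm4 at -2.46, and the stem call, which equals a UMI of Lgr5 or eGFP, was carried by 9.56% of goblet and 28.9% of other cells. MHC class II genes were lower for 5 of 8, with Cd74 at -1.40. Cell cycle genes had a list median of -0.47 with 0 of 34 past either bound. Fatty acid oxidation genes had one of -0.49, with 2 of 52 lower and 1 higher, beside 3.41% and 4.59% of all genes, and nothing is read from these counts. Immediate early genes, which tissue dissociation is known to induce, were higher for 7 of 18, with Fosb at 2.18 and Egr1 at 1.31. Paneth cell genes were higher for 6 of 18 and lower for 2 (list median 0.47): Mmp7, which activates alpha-defensins, was at 3.17, Guca2b at 2.70, Lyz1 at 0.34 and Gm15284 at -1.94.

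Goblet cells made up a larger share of the distal than of the proximal small intestine in each of the 5 mice. In the proximal libraries they were 2.31% and 3.70% of cells in the control mice and 4.45%, 5.06% and 3.96% in the HFD mice. In the distal libraries they were 13.6% and 16.4% in the control mice and 10.1%, 14.2% and 26.6% in the HFD mice. The distal share was higher by 12.3 percentage points on average, and no distal value overlapped a proximal one (exact sign-flip permutation test over 5 mice, two-sided p = 0.0625, the smallest it allows). Shares are of cells captured, so the recovery of other cell types enters them.

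By diet, every proximal HFD library lay above both control libraries, with means of 4.49% ± 0.550 (SD, n = 3) and 3.00% ± 0.982 (SD, n = 2). The difference of 1.49 percentage points gave p = 0.1 in an exact permutation test, two-sided, the smallest that 2 against 3 mice allow. It fell to 0.246 points (exact p = 0.9) when the rule asked for 1% of UMIs, which left 18 of 48 cells in the library that stood apart. In the distal small intestine the diets overlapped, at 17.0% ± 8.55 (SD, n = 3) against 15% ± 1.97 (SD, n = 2), a difference of 1.96 points (exact permutation p = 0.9). That difference rested on HFD mouse 3, without which it was -2.84 points, and without cells that also passed the Paneth rule or held 3 or more T and B cell genes it was -0.000656 points.

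**Figure D3:**
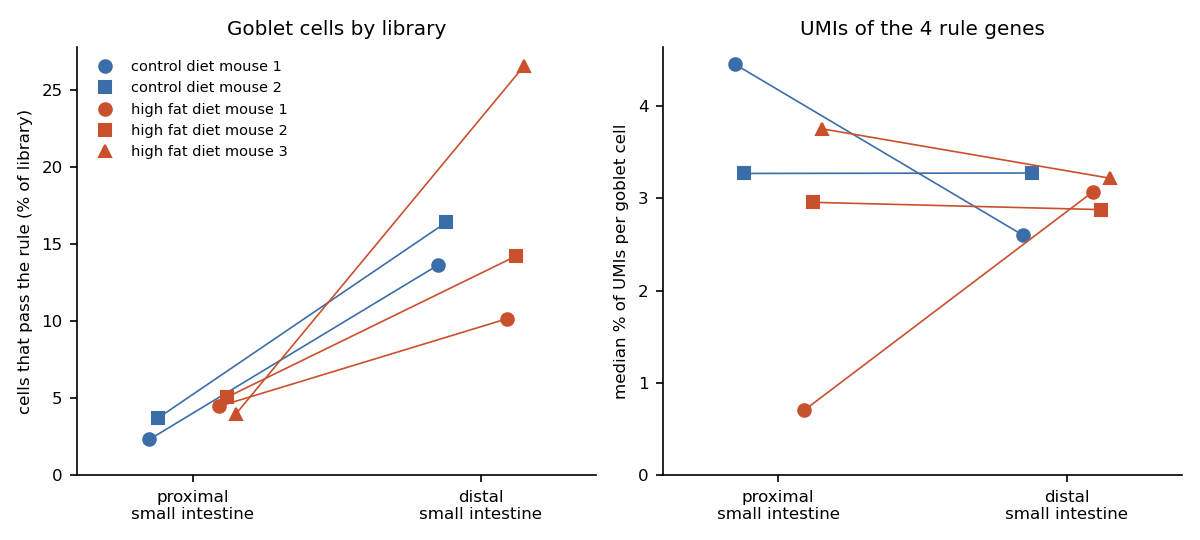
The left panel gives the goblet cell share of each library in percent and the right panel the median percent of UMIs from the 4 rule genes per goblet cell, with the 2 organs of a mouse joined. Distal shares of 10.1% to 26.6% lie above proximal ones of 2.31% to 5.06%, and the proximal library of HFD mouse 1 lies at 0.703% on the right.

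Proximal and distal goblet cells differed in 256 of 9740 genes tested (2.63%), 151 higher (1.55%) and 105 lower (1.08%) in the distal ones (edgeR quasi-likelihood test on counts summed per library, Benjamini-Hochberg adjusted p under 0.05). With the mouse as a block, since both libraries came from the same animal, 814 genes passed, 441 higher and 373 lower, and all 256 were among them. The libraries of the 2 regions did not overlap for 197 of the 256 genes, against 4.46% of all genes tested, and 247 differed in the same direction in the other cells, against 68.2% of all. Since the 256 were called on these libraries, nothing is read from the first count. Position genes were among those named on both sides. The duodenal factor Pdx1 had 52.5, 28.2, 35.6, 21.4 and 23.9 CPM in proximal goblet cells and 0, 0.151, 0, 0 and 0 CPM in distal ones. Hoxb9, a trunk patterning gene, was at 0 in every proximal library and at 55.9, 24.5, 25.9, 9.35 and 20.4 CPM in the distal ones, and Hoxb6 and Hoxb7 were likewise at 0 in proximal goblet cells. Rarely seen genes appear to have been removed within each library, so a 0 sets no limit and no fold is given for these genes.

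A few of the regional genes were found at more than the level of the other cells. P2ry4, a receptor for extracellular nucleotides on chromosome X (chrX:100590154-100594869, minus strand, GRCm38), was at 50.4, 37.0, 23.6, 43.6 and 39.2 CPM in distal goblet cells and 0 in proximal ones. In the other distal cells P2ry4 lay at 0.194 to 1.42 CPM, and it was at 0 in the T and B cells. C2cd4a had 18.6, 33.1, 5.34, 13.5 and 16.3 CPM in distal goblet and 0.194 to 0.61 CPM in other distal cells (log2 difference 5.90 ± 0.79 (SE), edgeR adjusted p = 0.00112). Cmtm8 was its proximal counterpart, with 8.75, 13.7, 11.1, 19.9 and 8.61 CPM in proximal goblet cells, 0.812 to 1.35 CPM in other proximal cells and at most 1.51 CPM in distal goblet cells (log2 difference -3.87 ± 0.55 (SE), edgeR adjusted p = 0.00104). The difference between regions was not tested for a difference between goblet and other cells.

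Among goblet products, 4 of 31 other goblet markers were higher distally and 0 lower, where 1.55% of all genes were higher and 1.08% lower. Guanylin (Guca2a) had 1279, 1789, 584, 1033 and 1210.5 CPM proximally and 1576, 3847, 3377, 2464 and 2994 CPM distally (log2 difference 1.26 ± 0.24 (SE), edgeR adjusted p = 0.00841), with 1 distal library below the highest proximal one. Bcas1 rose by 1.07 ± 0.22 (SE, log2), S100a6 by 1.64 ± 0.24 and Capn8 by 1.57 ± 0.29. Of the rule genes, which carry no test, Clca3 had 1889 to 2694 CPM proximally and 4047 to 7416 CPM distally, Zg16 1646 to 5358 and 1933 to 9993 CPM, Tff3 5904 to 11796 and 8023 to 13362 CPM, and Fcgbp 14561 to 29252 and 13366 to 18754 CPM. Clca3 alone did not overlap between the regions.

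Glycosylation genes changed in 4 of 37 cases, against 2.63% of all genes. The sialyltransferase St6gal1 rose distally (log2 difference 2.81 ± 0.34 (SE), edgeR adjusted p = 2.45e-04), as did Fut2 and Gne, the key enzyme of sialic acid synthesis, and St3gal6 fell (log2 difference -1.08 ± 0.18 (SE), edgeR adjusted p = 0.00284). Fut2 had 1.75, 0.687, 6.68, 1.47 and 1.91 CPM proximally and 28.5, 14.8, 6.86, 2.08 and 73.1 CPM distally, with wide spread between mice, and its call was lost without the library that stood apart (adjusted p = 0.0564). Of the 51 folding and secretion genes 0 passed with edgeR or DESeq2 (4 at an unadjusted p under 0.05), with a list median of 0.03 beside -0.01 for all genes. Of the 25 secretory fate genes 0 passed with edgeR and 1 with DESeq2 (5 unadjusted), with a list median of 0.06.

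Antimicrobial genes were higher distally for 5 of 16 and lower for 1, against 1.55% and 1.08% of all genes. The bactericidal lectin Reg3b had 3.50, 24.1, 46.8, 7.37 and 25.8 CPM proximally and 198, 229, 51.1, 144 and 2390.0 CPM distally (log2 difference 4.50 ± 0.92 (SE), edgeR adjusted p = 0.0146), and in the other cells 57.6 to 188 and 357 to 4382 CPM, so the goblet values lay below those of the other cells of the same library. Reg3g, whose call was lost without the library that stood apart (edgeR adjusted p = 0.0506), rose by 4.25 ± 0.94, the oxidase Duox2 by 2.74 ± 0.43 and its partner Duoxa2 by 2.51 ± 0.48 (SE, log2), while Reg1 fell. The 19 Paneth genes summed to 895 to 11776 CPM in proximal and 1414 to 11633 CPM in distal goblet cells, and their part in the Mmp7 difference (log2 difference 1.44 ± 0.19 (SE), edgeR adjusted p = 4.41e-04) was not tested.

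Of 23 absorptive cell genes 3 were higher and 9 lower distally, against 1.55% and 1.08% of all genes, with a list median of -0.51. Reg3b, Reg3g and Reg1 are in this list as well as in the antimicrobial one, so their calls enter both counts. Fabp6, the ileal bile acid binding protein, had 0 to 2.23 CPM in proximal and 111, 48.6, 7.63, 30.1 and 24.8 CPM in distal goblet cells, each below the other cells of its library (65.9 to 760.3 CPM). On the proximal side the transcription factors Onecut2 (log2 difference -5.53 ± 0.34 (SE), edgeR adjusted p = 8.50e-07) and Gata4 (log2 difference -2.35 ± 0.22 (SE), edgeR adjusted p = 2.27e-05), the stomach-type peptide Gkn3, the retinol binding protein Rbp2, arginase 2 (Arg2) and the peptidase Mme were higher. Onecut2 ran at 118 to 267 CPM proximally and 2.96 to 13.5 CPM distally in goblet cells, and at 125 to 279.9 and 2.49 to 5.49 CPM in the other cells. Gcg, a hormone gene of enteroendocrine cells, was named by the same rule with 133, 14.2, 7.63, 55.1 and 6.93 CPM in distal goblet cells, and the 27 enteroendocrine markers summed to 482 to 1552 CPM there and to 275 to 626 CPM proximally, whose part in it was not tested. The remaining named genes were Gm53, Bex1, Mgat4c, Tshz2, Tceal8, Bcl2l15 and Naaladl1, higher distally, and Pbld1, Wwtr1, Prss12, Mxra7, Slc1a3, Slc16a12 and Prap1, lower.

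Of 34 cell cycle genes 6 were lower in distal goblet cells and 0 higher, against 1.08% and 1.55% of all genes, with a list median of -0.40. They were the replication helicase genes Mcm3, Mcm4 and Mcm5, the nucleotide reductase genes Rrm1 and Rrm2, and Uhrf1, with log2 differences from -0.71 to -0.99. The summed level of the 34 genes was 3529 to 4612 CPM in proximal and 2219 to 3699 CPM in distal goblet cells.

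**Figure D4:**
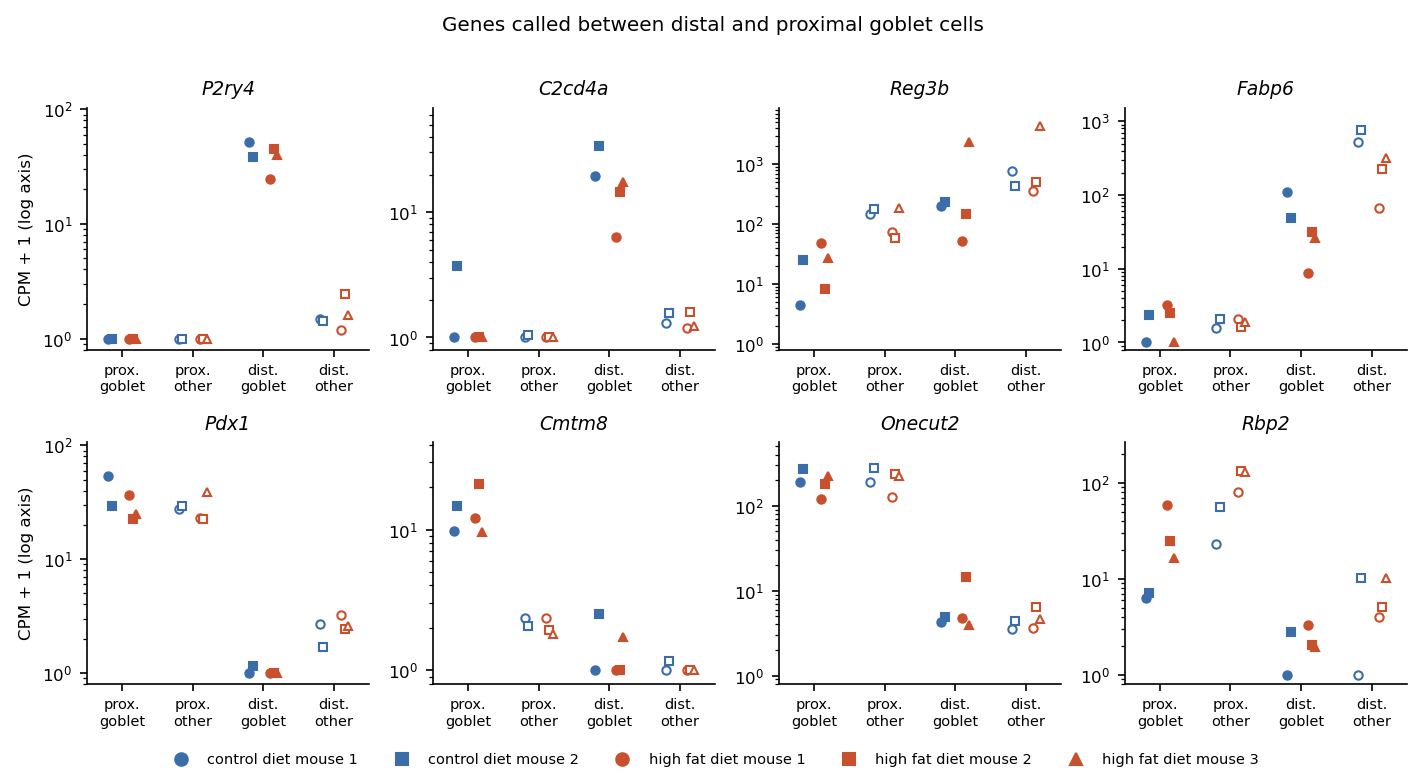
CPM plus 1 on a log axis is drawn for goblet cells (filled) and other cells (open) of each library, for 8 genes called between distal and proximal goblet cells and chosen after their values were seen. P2ry4 and C2cd4a stand out in distal goblet cells and Cmtm8 in proximal ones, whereas Reg3b and Fabp6 lie higher in the other cells.

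With 1 mouse left out, the region count ranged from 95 (without control mouse 2) to 256, with 142 without control mouse 1, 133 without HFD mouse 2 and 121 without HFD mouse 3. Without the library that stood apart 210 genes passed, 199 of them among the 256.

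The series is about fatty acid oxidation on a high fat diet, and the diet comparison asks which genes differ in goblet cells. In proximal goblet cells 8 of 9740 genes passed the test (0.0821%), 6 higher (0.0616%) and 2 lower (0.0205%) on the HFD, and 504 had an unadjusted p under 0.05. Of the 6 that rose, 5 belong to the fatty acid oxidation list. In distal goblet cells 2 genes passed (0.0205%), 1 higher and 1 lower (0.0103% each), with 251 under 0.05 unadjusted.

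Scd2, a desaturase that makes monounsaturated fatty acids (chr19:44293674-44306864, plus strand, GRCm38), fell in both regions. Proximal goblet cells had 210.0 and 207 CPM in the control and 29.0, 13.3 and 22.9 CPM in the HFD mice (log2 difference -3.34 ± 0.34 (SE), edgeR adjusted p = 6.92e-04). Distal goblet cells had 469.9 and 541 CPM in the control and 96.9, 102 and 180.1 CPM in the HFD mice (log2 difference -2.02 ± 0.28 (SE), edgeR adjusted p = 0.0274), and the diets did not overlap in either region. The other cells showed the same order, with 202 and 119.8 CPM in the control and 19.1, 14.2 and 23.4 CPM in the HFD mice proximally, and so did the T and B cells, with 213 and 109.7 CPM in the control and 40.8, 33.9 and 32.4 CPM in the HFD mice.

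Fabp1, the liver-type fatty acid binding protein, had 7.0 and 8.25 CPM in the control and 915, 317 and 296 CPM in the HFD mice in proximal goblet cells (log2 difference 6.05 ± 0.67 (SE), edgeR adjusted p = 7.72e-04), against 31.9 and 86.2 CPM in the control and 816, 1196 and 1122 CPM in the HFD mice in T and B cells of the same libraries, which should lack it. Creb3l3, a factor of fasting and lipid metabolism, had 1.75 and 0 CPM in the control and 93.5, 78.9 and 40.2 CPM in the HFD mice (log2 difference 7.0 ± 0.89 (SE), edgeR adjusted p = 0.00325), against 4.26 and 7.84 CPM in the control and 139, 281 and 248 CPM in the HFD mice in T and B cells. The control goblet sums held only 571476 and 1455274 UMIs, so these control values lie at the floor. A 0 sets no limit here either, and the size of the Creb3l3 difference is poorly set. For Alpi, the brush border alkaline phosphatase, the goblet values were 14.0 and 3.44 CPM in the control and 49.0, 98.0 and 91.8 CPM in the HFD mice (log2 difference 3.57 ± 0.49 (SE), edgeR adjusted p = 0.00638) and those of T and B cells 44.7 and 31.3 CPM in the control and 40.8, 286 and 345 CPM in the HFD mice. In HFD mice 2 and 3, goblet levels of these 3 genes were below those of the T and B cells. In HFD mouse 1 those of Creb3l3 were below and those of Fabp1 and Alpi above. The part of free RNA in these differences was not tested. The T and B cells numbered 21 to 50 per small intestine library before those that passed the goblet rule were left out.

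Acadl, the long-chain acyl-CoA dehydrogenase, had 36.7 and 57.7 CPM in the control and 163, 171 and 128 CPM in the HFD mice in proximal goblet cells (log2 difference 1.67 ± 0.27 (SE), edgeR adjusted p = 0.023), against 100.1 and 92.5 CPM in the control and 155, 265 and 244 CPM in the HFD mice in T and B cells. Its goblet level was above that of the T and B cells in HFD mouse 1 alone, and its call was lost without that library (log2 difference 1.58, edgeR adjusted p = 0.0959). Mgll, the lipase that splits monoacylglycerol, was the one of the 6 risen genes whose goblet level on the HFD lay above that of the other cells in every proximal and distal library. It had 3.50 and 0.687 CPM in the control and 44.5, 44.2 and 47.8 CPM in the HFD mice in proximal goblet cells (log2 difference 4.89 ± 0.53 (SE), edgeR adjusted p = 7.72e-04) and 1.93 to 33.4 CPM over the other cells of the same 5 libraries. The control goblet values of Mgll are also near the floor, so the size of that difference is poorly set. T and B cells had 4.26 and 3.13 CPM in the control and 40.8, 52.9 and 15.2 CPM in the HFD mice. In distal goblet cells Mgll had 23.0 and 14.2 CPM in the control and 51.9, 54.0 and 46.9 CPM in the HFD mice (log2 difference 1.53 ± 0.29 (SE), edgeR adjusted p = 0.283), which did not pass, and T and B cells 0 and 2.44 CPM in the control and 11.9, 28.3 and 2.05 CPM in the HFD mice.

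Of the 52 fatty acid oxidation genes tested, 5 rose proximally, against 0.0616% of all genes. The list medians were 0.81 proximally and 0.26 distally, beside 0.00 for all genes. Above 0 lay 49 and 42 of the 52, where 4850 and 4872 of all 9740 genes did. These genes share their libraries, and no test was run on the counts. Without the library that stood apart the medians were 0.68 and 0.24. The carnitine shuttle gene Cpt1a, which did not pass, had 245 and 199 CPM in the control and 394, 438 and 489.6 CPM in the HFD mice in proximal goblet cells (log2 difference 1.03 ± 0.30 (SE), edgeR adjusted p = 0.528). The 34 absorptive cell markers, of which Fabp1, Creb3l3 and Alpi are part, summed to 1450 to 2079 CPM in control and 2345 to 4172 CPM in HFD proximal goblet cells, and to 5277 to 5984 and 6397 to 8257 CPM in the other cells. The genes of next smallest p, which did not pass, were Pex11a and Hsdl2 proximally and Slc25a20, Mgll, Nfil3, Acadl, Tm4sf4, Apobec1 and Acot2 distally, with edgeR adjusted p from 0.172 to 0.791. Of 28 lipid synthesis genes Scd2 alone passed in either region.

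Mmp7, the Paneth cell protease, was the other gene lower proximally. Goblet cells had 646 and 772 CPM in the control and 178, 179 and 244 CPM in the HFD mice (log2 difference -1.79 ± 0.26 (SE), edgeR adjusted p = 0.00798), and T and B cells 0 to 21.3 CPM. In distal goblet cells the values were 716 and 784 CPM in the control and 1088, 1052 and 1863 CPM in the HFD mice, beside 2.44 to 871 CPM in T and B cells, the upper values being those of HFD mouse 1 (773 CPM) and HFD mouse 3, and the diet difference itself differed between the regions (log2 difference 2.58 ± 0.37 (SE), edgeR adjusted p = 0.0438 for distal minus proximal). Alpi was the other gene called there (log2 difference -4.93 ± 0.74 (SE), edgeR adjusted p = 0.0438), so 2 of 9740 genes passed (0.0205%), 1 higher and 1 lower (0.0103% each), or 55 with the mouse as a block. With Paneth-rule and T or B gene cells left out, proximal goblet cells still had 428 and 493 CPM in the control and 75.1, 75.9 and 164 CPM in the HFD mice, but the test of the regional difference gave 0 calls. Next in that test, and not past it, were Mgll, Gm14851, Defa26, Gm15284, Ces2g, AY761184, Fam46c and Defa3 (edgeR adjusted p from 0.362 to 0.714), among which the defensin genes have near-identical copies whose reads may be split. Without the library that stood apart, both the proximal call for Mmp7 (log2 difference -1.77, edgeR adjusted p = 0.059) and that of the regional difference (2.55, adjusted p = 0.1) were lost. Over all alternatives the proximal difference ran from -2.08 to -1.62 and the regional one from 2.26 to 2.70. Paneth markers moved with it: their sum was 2182 to 11776 CPM in control and 895 to 2498 CPM in HFD proximal goblet cells, against 1414 to 3436 and 3719 to 11633 CPM distally. All 19 Paneth genes tested lay below 0 proximally (list median -2.81, or -2.39 without the library that stood apart) and 18 of 19 above 0 distally (1.81), where Mmp7 proximally was the only one to pass, and their part in the Mmp7 result was not tested.

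Goblet cell programmes showed no called change with diet. Of the 31 other goblet markers 0 passed in either region with edgeR or DESeq2 (6 proximally and 0 distally at an unadjusted p under 0.05), with list medians of -0.40 and 0.19. The proximal median was -0.29 without the library that stood apart. Proximally 2 of the 31 lay above 0, or 5 without that library, where 4850 of all 9740 genes did. Distally 23 of the 31 lay above 0. Glycosylation genes (37, medians -0.14 and 0.13), folding and secretion genes (51, -0.19 and 0.08, the first -0.12 without the library that stood apart) and secretory fate genes (25, -0.24 and 0.03) also had 0 calls with either tool. At an unadjusted p under 0.05 there were 3 and 1, 2 and 1, and 4 and 2 of them. Above 0 lay 9 and 28, 8 and 35, and 6 and 13 of them, proximally and distally. Genes of a list share their libraries, and no test was run on these counts. With 2 against 3 mice a missed threshold does not show that the diets were alike. Spdef, for example, had 345 and 284 CPM in the control and 160.4, 274 and 285 CPM in the HFD mice proximally (log2 difference -0.35 ± 0.25 (SE), edgeR adjusted p = 1.00).

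**Figure D5:**
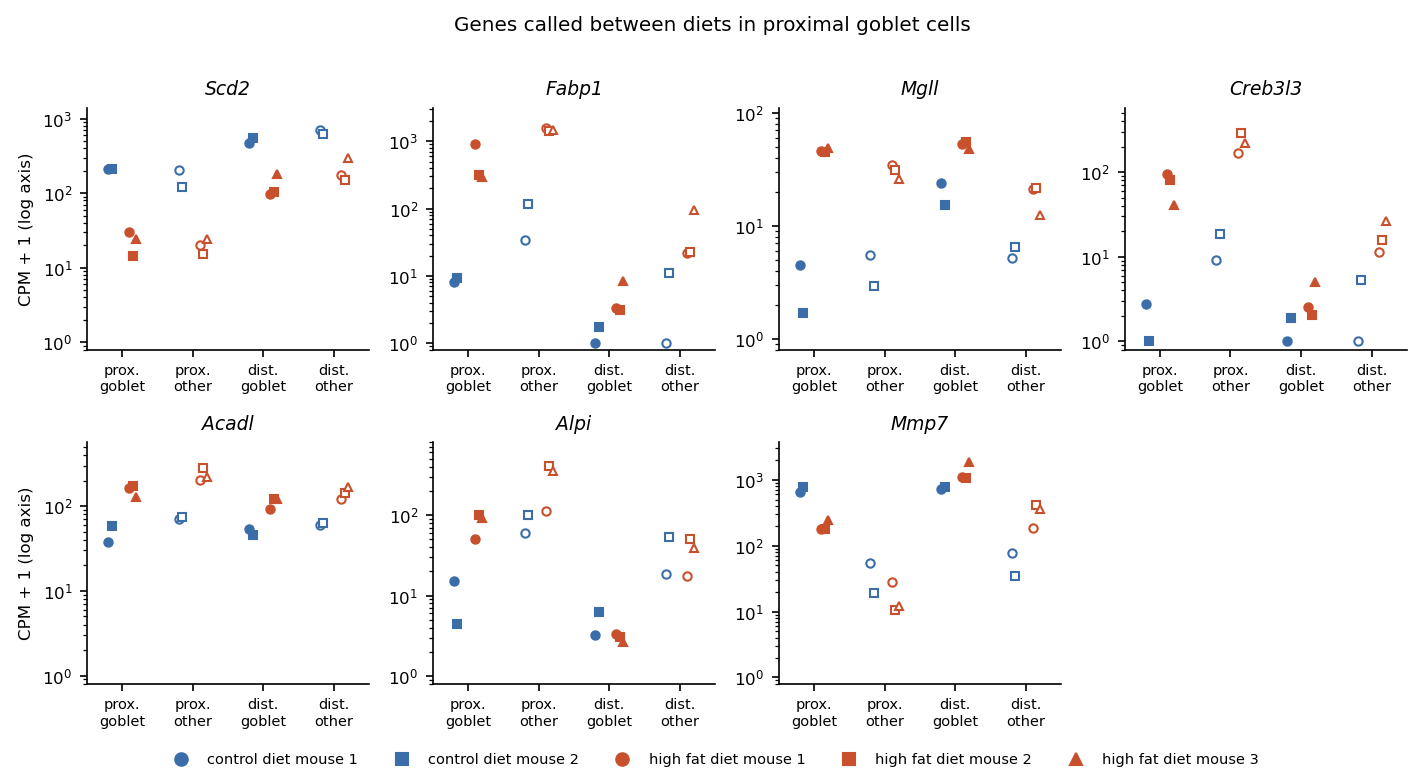
CPM plus 1 on a log axis is drawn for goblet cells (filled) and other cells (open) of each library, for 7 genes called between diets in proximal goblet cells. Scd2 is lower on the HFD in all 4 columns, and Mmp7 lower in proximal but not in distal goblet cells.

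These calls rested on few mice. The proximal count was 1 without control mouse 2, 3 without HFD mouse 2 and 15 without control mouse 1, and Scd2 passed in all 14 alternatives of the proximal comparison. The distal call for Scd2 passed in 10 of 14 alternatives. The other proximal calls passed in fewer than all 14, from 8 for Acadl and 10 for Alpi and Mmp7 to 13 for Mgll and Fabp1. When proximal and distal cells were summed per mouse, 0 of 10265 genes passed with edgeR (208 under an unadjusted 0.05) and 11 with DESeq2. The genes of smallest p there were Mgll, Fabp1, Acadl, Slc25a20, Creb3l3, Scd2, Neurog3, Tm4sf4 and Thbs1, at edgeR adjusted p from 0.186 to 0.955.

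The diet difference in goblet cells was also set against that in the other cells of the same libraries. It differed for 13 of 13073 genes proximally (0.0994%), 6 higher (0.0459%) and 7 lower (0.0535%). Distally it differed for 4 genes (0.0306%), 2 higher and 2 lower (0.0153% each). Fabp2, the intestinal fatty acid binding protein, had 265 and 247 CPM in the control and 1330.5, 949 and 579 CPM in the HFD mice in the other proximal cells, while goblet cells had 672 and 555 CPM in the control and 1497, 777 and 525 CPM in the HFD mice (log2 difference -1.37 ± 0.17 (SE), edgeR adjusted p = 6.49e-04 for goblet minus other). Olfm4, a crypt stem cell gene, went the other way, with 234 and 259 CPM in the control and 1354, 775 and 477 CPM in the HFD mice in goblet and 2685 and 2212 CPM in the control and 2782, 2069 and 2103 CPM in the HFD mice in other cells (log2 difference 1.74 ± 0.30 (SE), edgeR adjusted p = 0.0128). That call was lost without doublets (adjusted p = 0.936) and without stem-called cells (log2 difference 1.32, adjusted p = 0.726). Scin had 441 and 298 CPM in the control and 176, 272 and 329 CPM in the HFD mice in proximal goblet and 6.63 and 4.72 CPM in the control and 10.9, 12.1 and 9.52 CPM in the HFD mice in other cells (log2 difference -1.42 ± 0.21 (SE), edgeR adjusted p = 0.00308). Distally, Egr1, an immediate early gene, had 467 and 310.1 CPM in the control and 441, 1204 and 931 CPM in the HFD mice in goblet and 213 and 305 CPM in the control and 151, 263 and 207 CPM in the HFD mice in other cells (log2 difference 1.44 ± 0.23 (SE), edgeR adjusted p = 0.0271), with overlap between the diets in goblet cells. Of the 18 genes of the dissociation list, which holds Egr1, 14 lay above 0 for goblet minus other (list median 0.61). In distal goblet cells alone 13 of 18 lay above 0 with diet (median 0.99). An unadjusted p under 0.05, in either direction, was reached by 14 of the 18, against 251 of all 9740 genes tested. Since 13 lay above 0, not all 14 were rises. With edgeR or DESeq2 0 of them passed. Proximally 2 of the 18 were under 0.05 unadjusted, against 504 of 9740 genes, with a list median of 0.10. The part of dissociation in the Egr1 result was not tested. B3gnt7, Ern2, Igkc, Ccl9, Spdef and Chst4 were next and did not pass (edgeR adjusted p from 0.0848 to 0.0979), with values for goblet minus other below 0. Without the library that stood apart these 6 passed, with Agr2 (-1.07) and Spink4 (-1.64), and Spdef was at -1.85 (edgeR adjusted p = 0.0121). A value below 0 in this comparison does not mean a fall in goblet cells. In distal goblet cells alone the log2 diet differences were 0.03 for Spdef, 0.40 for Ern2, 0.13 for Agr2 and 0.36 for Spink4. None of these passed. Without control mouse 1 there were 61 calls proximally and 71 distally, and the other counts with 1 mouse left out ran from 15 to 26 and from 2 to 32.

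Colon cells offered a comparison outside the small intestine. The same rule was passed by 217 of 4372 colon cells (4.96%). Their median log2 ratios to the other colon cells were 2.32 for Agr2, 1.58 for Spdef, 3.83 for Fer1l6 and 3.18 for Scin, against 5.89, 3.97, 3.95 and 3.82 in the small intestine. The difference between the organs was not tested.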

How the data were processed

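Single-cell libraries came from 15 samples (5 mice, 3 organs), and 10 small intestine libraries enter here. The authors deposited raw UMI counts per gene and cell (17185 genes, 18919 cells), with a table of library, diet, organ and a stem cell call for each cell. The genome was mm10, per the submitters' processing notes, and the aligner and counter are not given in the sources used here. The table's control mouse 3 was taken as control mouse 2 of the labels, the only one left. Rarely seen genes appear to have been removed per library before deposit, since few genes are present in 1 to 3 cells of a library. Muc2 has no values here.

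Counts of goblet and of other cells were summed per library (at least 20 cells) and tested with edgeR 4.0.16 in R 4.3.3 (quasi-likelihood, TMM, filterByExpr, Benjamini-Hochberg 0.05), the 4 groups of region and diet sharing 1 dispersion. DESeq2 1.42.0 was an alternative. Doublets were called with Scrublet through scanpy 1.11.5 and kept, except in an alternative. CPM are summed counts scaled by their total. Ratios to other cells have 10 CPM added. Shares were compared by exact permutation. Fits were tested on simulated data. Depth sets the precision: goblet sums held 448997 to 9810813 UMIs.

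Named genes were all calls up to 30, otherwise the 15 highest and 15 lowest log2 differences without overlap between groups, or the 25 highest ratios to other cells at 50 CPM or more, plus a fixed list. Some genes that this rule names are not reported here. Members and lists were chosen with earlier results of these data known. Proximal and distal libraries came from the same animal, and their deviations from group means correlated at 0.22 to 0.41, so the mouse was used as a block between regions in an alternative. Alternatives were DESeq2, no count filter, a 1% or 2-gene rule, cells thinned to 3000 UMIs, no doublets, no stem-called cells, 1 region alone, replicate blocks and each mouse left out. Leaving out cells with Paneth or T and B cell genes, and the library that stood apart, were chosen after seeing the data. Coordinates are from GENCODE M21 and promoter sequences from RefSeq (GRCm38.p6).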

Additional observations from a re-analysis of the deposited data

Results flagged for a closer look

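For 2 genes the diet difference in goblet cells differed between the regions by a test of that difference. It was 2.58 higher in distal than in proximal goblet cells on the log2 scale for Mmp7, and -4.93 for Alpi. Over the alternatives the values ran from 2.26 to 2.70 and from -6.12 to -2.97. Both calls were lost under the 1% rule, without doublets, without cells that hold Paneth or T and B cell genes, without the HFD mouse 1 proximal library, and without control mouse 2, HFD mouse 2 or HFD mouse 3, and that of Mmp7 also without control mouse 1.

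For 13 genes the diet difference differed between goblet and other proximal cells, where positive values mean a larger increase, or smaller decrease, in goblet cells. Those above 0 were Mcpt2 (8.30) and Mcpt1 (6.84), proteases of mucosal mast cells, Amica1 (2.04), an adhesion molecule of epithelial T cells, the stem cell gene Olfm4 (1.74), and the urea cycle and ornithine enzymes Cps1 (0.98) and Oat (0.75). Their values over the alternatives ran from 4.66 to 14.06 for Mcpt2 and from 3.37 to 9.67 for Mcpt1, and the calls passed in 8 of 11 and 6 of 11 alternatives with an adjusted p, which DESeq2 did not give for either. Mcpt1 lay at 0 to 11.5 CPM in proximal goblet cells and Mcpt2 at 0 to 10.5 CPM. Those below 0 were Fmo5 (-2.07), Reg4 (-1.88), the sulfotransferase Gal3st2 (-1.75), Scin (-1.42), Fabp2 (-1.37), Anxa13 (-1.16) and Cgref1 (-1.09). Reg4, a secreted lectin, had 199 and 486 CPM in the control and 42.3, 388 and 124 CPM in the HFD mice in goblet cells and 39.5 and 69.5 CPM in the control and 23.0, 143 and 137 CPM in the HFD mice in the other cells. Of the 13, Fabp2 passed in all 12 alternatives run, Fmo5 in the 11 with an adjusted p, and Oat in 2 of 12. The calls for Cps1 and Oat were lost without the HFD mouse 1 proximal library (0.78 and 0.60, edgeR adjusted p = 0.154 for each), and that for Olfm4 without doublets and without stem-called cells.

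In the distal small intestine 4 genes were called by the same test. Egr1 (1.44) and Bhlhe40 (0.85), both rapidly induced transcription factors, were above 0. Of the 18 genes of the dissociation list 14 lay above 0 in this comparison, with a median of 0.61, and their part in it was not tested. Rep15 (-2.23) and Fkbp11 (-1.55), a prolyl isomerase of the secretory pathway, were below 0. Rep15 had 51.5 and 175 CPM in the control and 99.9, 179 and 175 CPM in the HFD mice in goblet cells and 0.778 and 1.06 CPM in the control and 3.19, 4.88 and 5.93 CPM in the HFD mice in the other cells. All 4 calls were lost without doublets and without stem-called cells.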

How the results depend on the processing

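Numbers of called genes depended on the filter, the block and single mice, and the cause was not tested. Without a filter on low counts the calls were 88 (proximal diet), 86 (distal diet), 80 (diet per mouse), 558 (region), 40 (diet by region), 109 (diet, goblet minus other, proximal) and 88 (the same, distal). DESeq2 gave 11 per mouse, 32 of only 1507 genes with an adjusted p for goblet minus other proximally, and 2 distally. The 1% rule gave 5 proximal diet calls, 0 for diet by region and 36 for goblet minus other distally. Without doublets the counts were 1 (distal diet), 0 (diet by region), 7 and 0 (goblet minus other, proximal and distal), and without stem-called cells 1 (distal diet), 5 and 0. Leaving out cells with Paneth or T and B cell genes gave 0 for diet by region and 17 for goblet minus other distally, and leaving out the HFD mouse 1 proximal library gave 0 for diet by region and 19 for goblet minus other distally. Distal libraries fitted alone gave 0 distal diet calls.

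The mouse as a replicate block gave 814 calls by region and 55 for diet by region. Across diets the samples share only a number: same-numbered deviations correlated at 0.13 and 0.10 proximally and 0.32 and 0.08 distally. The highest distal value, 0.33, was between control mouse 2 and HFD mouse 3. Deviations of the 2 control mice mirror each other, so these values are not independent. The replicate number as a block gave 61 proximal, 15 distal and 80 per-mouse calls. It reversed the per-mouse differences of Reg3b (-1.49) and Fut2 (-2.03). Unpaired, the regional share difference of 12.3 points had an exact permutation p of 0.00794, and same-numbered pairs gave a distal diet difference of -2.84 points (exact p = 0.5). Without cells with Paneth or T and B cell genes that difference was -0.000656 points, and without HFD mouse 3 it was -2.84.

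With each mouse left out in turn, calls ranged from 1 to 15 (proximal diet), 0 to 15 (distal diet), 0 to 5 (per mouse), 95 to 256 (region), 0 to 3 (diet by region), 15 to 61 (goblet minus other, proximal) and 2 to 71 (distal). The 3 highest, 61, 71 and 15 proximal diet calls, came without control mouse 1, and 15 distal diet calls without HFD mouse 1. Share differences ranged from 0.790 to 2.18 (proximal diet), -2.84 to 5.37 (distal diet) and 9.71 to 13.9 points (region). Of 3618 values of single named genes, 3285 kept their direction and their side of the threshold, 137 lost and 194 gained a call, and 2 reversed. DESeq2 gave no adjusted p for 16 more. Few cells per proximal library and 2 control mice limit these comparisons.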

Other observations

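Mki67, a gene of dividing cells, was seen in 57.9% and 62.0% of proximal goblet cells thinned to 3000 UMIs in the control mice and in 63.8%, 57.0% and 51.5% in the HFD mice. In distal goblet cells the shares were 38.9% and 43.2% and 38.8%, 48.3% and 34.1%. The other cells, thinned likewise, had 52.5% to 69.0% over the proximal and 51.9% to 61.2% over the distal libraries. T and B cells outside the rule, pooled over both regions, had 41.0% (95% exact binomial interval 35.2% to 46.9%, 288 cells). Unthinned, the goblet shares were 65.8% to 87.3% and 46.3% to 73.7%. No test was run on these shares, and no division is read from them.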
